A study of Homo sapiens with 24 samples.

Results

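Gene expression was compared between PEO4 and PEO1 BRCA+ cells after 6 h in 5 µM PDS, in 3 libraries of each line, and the comparison covers all genes with enough counts in these and the companion libraries (17020 of the 28277 genes listed). Both are human ovarian adenocarcinoma lines. PEO1 BRCA+ carries the label BRCA2+ and is the PEO1 line in which BRCA2 function was regained, whereas PEO4 is labelled WT and is the drug-resistant counterpart. Untreated cells of the same lines (3 libraries each) were the reference for asking which line differences persisted and which vanished in PDS. Cells kept for 2 h in 5 µM PDS (3 libraries each) lie in time between untreated cells and those at 6 h. A further 6 libraries of untreated PEO1 (labelled WT, deficient in BRCA2) and PEO4 cells, called pair A, gave a second view of the line difference. Each group is 3 cultures of 1 line, so a line difference is a difference between 2 established lines and not between sensitive and resistant tumours in general. PEO4 and PEO1 BRCA+ also differ in more than drug resistance, and no second resistant line was treated with PDS in these libraries.

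PDS, or pyridostatin, is a ligand of G-quadruplexes (G4s) that locks them in the folded state. G4s are stacks of guanine tetrads formed by DNA or RNA strands with several runs of guanines. Stabilized G4s stall polymerases, provoke DNA damage and displace proteins that recognize the folded structure. BRCA2 is needed to repair DNA breaks by homologous recombination, and cells without it are sensitive to cisplatin, which crosslinks DNA, and to G4 ligands.

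Depth was even at 6 h, with 34455291 to 38123787 counts in PEO1 BRCA+ libraries and 34119767 to 43713947 in PEO4 libraries. The untreated libraries held less, 18699929 to 22375644 counts, and counts on 37 ribosomal RNA genes made up 0.217% to 0.474% of them against 0.0164% to 0.0369% at 6 h. Depth and ribosomal RNA share therefore moved with treatment in both lines, and their part in the differences between untreated and treated cells cannot be told apart from that of PDS. The 3 untreated PEO4 libraries also differed more from each other (chi-square per degree of freedom 14.4 to 26.4 over genes) than the 3 PEO4 libraries at 6 h (2.13 to 3.30). Ovarian carcinoma markers were present in both lines at 6 h. PAX8, a transcription factor of the Müllerian lineage, stood at 161 to 184 CPM (counts scaled to library size, with TMM normalization) in PEO1 BRCA+ and 151 to 163 CPM in PEO4, and EPCAM at 382 to 411 and 569 to 573 CPM, whereas SOX17 had 2 counts in the PEO1 BRCA+ libraries together and 0 in those of PEO4. Of 12 leukocyte markers, CD3D, CD3E and MS4A1 had 0 counts at 6 h, and the summed level (48.2 to 50.1 CPM in PEO1 BRCA+, 70.5 to 80.2 CPM in PEO4) was mostly the lysosomal gene CD68. Of 10 endothelial markers EMCN had 0 counts, and the summed level was 10.1 to 12 CPM in PEO1 BRCA+ and 5.66 to 6.16 CPM in PEO4. The 12 fibroblast markers summed to 125 to 129 CPM in PEO1 BRCA+ and 61.4 to 69.3 CPM in PEO4, mostly from THY1, while DCN, LUM, POSTN and DPT had at most 3 counts in the 3 libraries of either line. The 10 mesothelial markers, which share MSLN and WT1 with the ovarian list, summed to 402 to 462 CPM and 563 to 621 CPM. Bulk RNA cannot tell fewer cells of a kind from less RNA per cell, and the part of any minor cell population in the results was not tested.

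At 6 h in PDS, 1620 genes were upregulated and 2301 downregulated in PEO4 relative to PEO1 BRCA+. A gene was called when the Benjamini-Hochberg adjusted p of edgeR's quasi-likelihood test was under 0.05 and the absolute log2 fold change over 1, which held for 9.52% of tested genes in the upward and 13.5% in the downward direction. Without PDS the same rule called 2083 genes (12.2%) upregulated and 2145 (12.6%) downregulated, so the share of upregulated genes among the called was 49.3% untreated and 41.3% at 6 h. Of the genes called at 6 h, 517 were more than 4-fold higher and 1051 more than 4-fold lower in PEO4. In 498 of them one line had at most 3 counts in each of its libraries, and this was the PEO4 line for 341. The difference of the line differences (the interaction, 6 h minus untreated) was itself called for 2512 genes, more positive at 6 h for 923 (5.42%) and more negative for 1589 (9.34%).

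**Figure D1:**
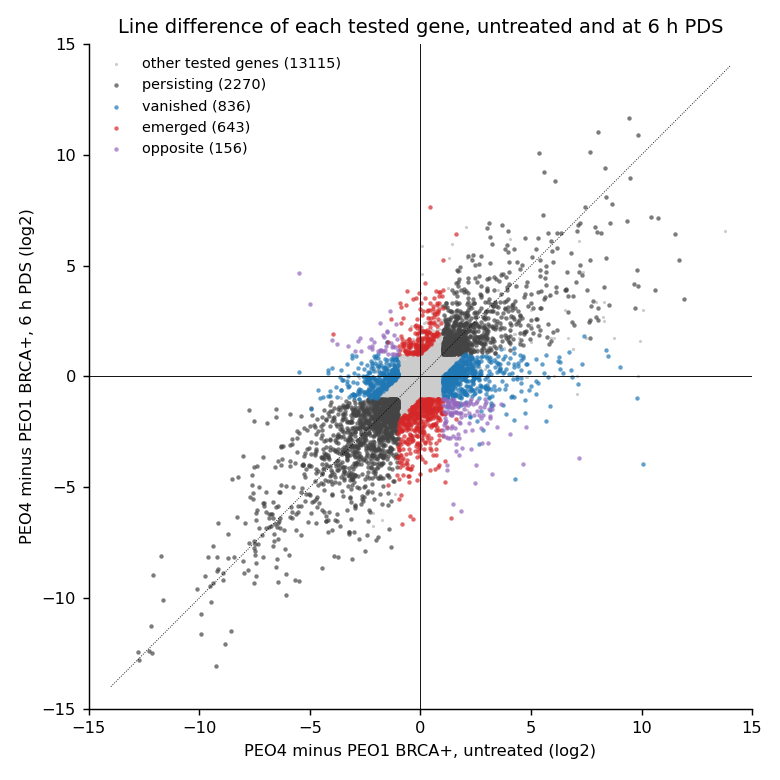
Line difference of each of 17020 tested genes (PEO4 minus PEO1 BRCA+, log2) untreated on the x axis and at 6 h PDS on the y axis, 1 point per gene, with the dotted line marking equal differences. The 2270 persisting genes lie along the diagonal, the 836 vanished genes mostly near 0 on the y axis, the 643 emerged genes mostly near 0 on the x axis, and the 156 genes of opposite sign in the other 2 quadrants.

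Genes were then separated by outcome. A line difference called with the same sign at both times persisted, and this held for 2270 genes (13.3% of tested genes), 920 of them higher and 1350 lower in PEO4. A difference called untreated but not at 6 h was counted as vanished only if the interaction was called, which gave 836 genes (4.91%), 514 of them higher in untreated PEO4. Another 966 differences lost their call without a called interaction and are undetermined. A difference called at 6 h but not untreated, with a called interaction, emerged in 643 genes (3.78%), and 852 more gained a call without a called interaction. In 156 genes (0.917%) the line difference was called at both times with opposite signs. Of the genes that were higher in untreated PEO4, 44.2% persisted and 24.7% vanished, compared with 62.9% and 15% of those that were lower.

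Persisting genes had a median log2 fold change of 1.85 untreated and 1.79 at 6 h for those higher in PEO4, and of -2.13 and -2.33 for those lower. The interaction was called for 476 of the 2270, and the gap widened in 240 and narrowed in 236. OBP2B, a lipocalin that binds odorants (GRCh38.p14, chromosome 9, 133205279 to 133223255), had 0.0271, 0.0606 and 0.0587 CPM in PEO1 BRCA+ at 6 h and 171, 167 and 176 CPM in PEO4. The PEO1 BRCA+ libraries held 1 or 2 counts each, so the excess in PEO4 was at least 1972-fold (adjusted p = 3.6e-16). Reads from its near-identical paralog OBP2A may be counted for either. SST, the peptide hormone somatostatin (chromosome 3, 187668912 to 187670394), had 0 counts in all 3 PEO1 BRCA+ libraries and 7.35, 8.3 and 9.31 CPM in PEO4, at least 95.9-fold more (adjusted p = 2.5e-05). MMP14, a membrane-anchored matrix metalloproteinase (chromosome 14, 22836585 to 22847758), was at 0.136, 0.121 and 0.176 CPM in PEO1 BRCA+ and at 97.8, 98.2 and 102 CPM in PEO4, a log2 fold change of 9.39 ± 0.19 SE with an adjusted p of 2.4e-20 against 8.37 untreated. TIE1, a receptor tyrosine kinase known from endothelium (chromosome 1, 43300982 to 43323108), was at 0.136, 0.212 and 0.147 CPM in PEO1 BRCA+ and 108, 103 and 93 CPM in PEO4. In the untreated PEO4 libraries it had varied more, at 17.8, 40.4 and 8.66 CPM, and its interaction was not called (adjusted p = 0.1).

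The 3 genes named for a lower level in PEO4 that persisted had 0 counts in its untreated libraries and in those at 6 h. XYLT1, which starts glycosaminoglycan chains on proteoglycans (chromosome 16, 17101769 to 17470960), had 26.7, 26.4 and 33.4 CPM in PEO1 BRCA+ and 0 counts in the 6 untreated and 6 h PEO4 libraries, at least 342-fold less at 6 h (adjusted p = 4.4e-13). COL22A1, a collagen of tissue junctions (chromosome 8, 138588235 to 138914041), had 23.1, 21.9 and 22.5 CPM in PEO1 BRCA+ and 0 counts in the same 6 PEO4 libraries, at least 267-fold less (adjusted p = 7.5e-18). PEG3, an imprinted zinc finger gene (chromosome 19, 56810082 to 56840726), had 19.8, 21.8 and 24.2 CPM in PEO1 BRCA+ and likewise 0 counts in PEO4, at least 260.2-fold less (adjusted p = 5.9e-19). Levels that did not overlap between the lines at 6 h were a condition for naming these 3 genes. Of 17020 tested genes, 6411 were higher and 6463 lower in PEO4 at 6 h without overlap. PEG3 shares its locus with ZIM2 and PEG3-AS1, and counts of overlapping genes may be exchanged.

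Vanished differences had medians of 1.95 untreated and -0.03 at 6 h (514 genes higher in untreated PEO4) and of -1.78 and -0.10 (322 genes lower). At 6 h the 95% interval of the difference lay wholly within 1 log2 unit of 0 for 248 of the 514 and 221 of the 322. For the rest a line difference of 2-fold remained possible. BOC, a co-receptor of Hedgehog signalling (chromosome 3, 113210926 to 113287459), was at 0.24, 0.454 and 1.1 CPM in untreated PEO1 BRCA+ and at 52.7, 40.1 and 109 CPM in untreated PEO4. At 6 h it was at 0.407, 0.728 and 0.616 CPM and 0.787, 0.549 and 0.778 CPM, levels that overlapped, with a log2 fold change of 0.3 (95% interval -1.39 to 1.98) and an interaction of -6.49 ± 1.11 SE with an adjusted p of 0.00033. The cornified envelope gene LCE3D (chromosome 1, 152579381 to 152580516) went from 16.9, 5.02 and 14 CPM in untreated PEO4 to 10, 7 and 4 counts at 6 h, beside 10, 4 and 4 counts in PEO1 BRCA+ at 6 h. Its neighbour CRCT1 in the epidermal differentiation complex (chromosome 1, 152514482 to 152516008) was at 55.3, 9.29 and 35.7 CPM in untreated PEO4 and at 9, 7 and 10 counts at 6 h. The interaction of CRCT1 was -7.58 ± 2.61 SE with an adjusted p of 0.03 and did not pass the threshold without replicate 1, 2 or 3 of PEO1 BRCA+ at 6 h (adjusted p = 0.072, 0.093 and 0.074) or without replicate 2 of untreated PEO1 BRCA+ (adjusted p = 0.054).

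In the other direction, SCNN1G, the gamma subunit of the epithelial sodium channel (chromosome 16, 23182745 to 23216883), was at 15.1, 21.2 and 19 CPM in untreated PEO1 BRCA+ and at 1.21, 1.05 and 0.783 CPM in untreated PEO4. At 6 h the levels were 5.8, 5.43 and 6.63 CPM and 5.91, 7.05 and 6.77 CPM, and the log2 fold change of 0.14 (95% interval -0.11 to 0.39) stayed within 1 unit of 0. PEO1 BRCA+ had fallen by 1.63 and PEO4 had risen by 2.68 on the log2 scale (adjusted p = 5.7e-11 and 1.5e-12). HIPK2, a nuclear kinase that phosphorylates p53 (chromosome 7, 139561570 to 139777998), was at 159.9, 159.7 and 181 CPM and 16.2, 24.1 and 18.8 CPM in the untreated lines and at 69.6, 66.3 and 91.9 CPM and 144, 132 and 130.3 CPM at 6 h. It was thus higher in all 3 PEO4 libraries at 6 h, by 0.83 ± 0.136 SE with an adjusted p of 6.7e-05, a difference under the fold threshold. CXCL2, a chemokine for neutrophils (chromosome 4, 74097040 to 74099195), was at 15, 7.19 and 13.2 CPM and 1.13, 1.26 and 0.553 CPM untreated and at 3.2, 3.73 and 3.08 CPM and 4.05, 4.45 and 3.53 CPM at 6 h, where the lines overlapped. SLC22A3, an organic cation transporter (chromosome 6, 160348378 to 160452577), was at 100.2, 116 and 94.7 CPM in untreated PEO1 BRCA+ and at 3.12, 19.8 and 4.15 CPM in untreated PEO4, where replicate 2 was the highest. At 6 h PEO1 BRCA+ was at 98.1, 93.8 and 89.4 CPM and PEO4 at 83.9, 84.6 and 83.7 CPM, a log2 fold change of -0.16 (95% interval -0.87 to 0.55).

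Emerged differences had medians near 0 untreated (0.05 and -0.01) and of 1.69 and -1.81 at 6 h for 202 genes now higher and 441 now lower in PEO4. SRPX, a sushi-repeat protein (chromosome X, 38149339 to 38220871), was at 8.05, 8.35 and 6.37 CPM and 5.07, 11.5 and 5.67 CPM in the untreated lines. At 6 h PEO1 BRCA+ was at 11, 9.28 and 9.19 CPM and PEO4 at 139, 133 and 132 CPM, a log2 fold change of 3.78 ± 0.174 SE with an adjusted p of 6.6e-11. UCHL1, a deubiquitinating enzyme of neurons and many tumours (chromosome 4, 41256928 to 41268455), was at 3.25, 3.12 and 2.49 CPM in PEO1 BRCA+ and 36.5, 35.5 and 32.4 CPM in PEO4 at 6 h, and the lines had moved apart, by -1.65 in PEO1 BRCA+ and 1.3 in PEO4 on the log2 scale. The secreted protease ADAMTS16 (chromosome 5, 5140330 to 5320304) was at 0.732, 0.788 and 0.587 CPM and 10.6, 9.4 and 9.7 CPM, with a log2 fold change of 3.81 at 6 h and 0.87 untreated. VIM, which encodes the intermediate filament of mesenchymal cells (chromosome 10, 17228241 to 17237593), was at 8.41, 9.16 and 8.72 CPM in PEO1 BRCA+ and 42.7, 53.8 and 63.1 CPM in PEO4 at 6 h, a log2 fold change of 2.60 ± 0.448 SE with an adjusted p of 0.00018. Untreated PEO4 had ranged from 3.18 to 27.7 CPM around the 13 to 15.4 CPM of PEO1 BRCA+, so the untreated lines overlapped. In the untreated cells of pair A, VIM, SRPX and ADAMTS16 were lower in PEO4 (log2 fold changes -9.05, -1.92 and -1.01), and UCHL1 was not called (0.41). VIM overlaps the antisense gene VIM-AS1.

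COL17A1, a transmembrane collagen of hemidesmosomes (chromosome 10, 104031286 to 104085880), was the reverse case, at 11.5, 10.6 and 12.4 CPM in PEO1 BRCA+ and 0.477, 0.702 and 0.988 CPM in PEO4 at 6 h. Its log2 fold change was -4.02 ± 0.183 SE with an adjusted p of 7.1e-16, against 0.83 untreated. GFRA1, a receptor for GDNF (chromosome 10, 116056925 to 116274705), was at 15.4, 16.4 and 18.3 CPM and 0.405, 0.58 and 0.239 CPM at 6 h, with a log2 fold change of -5.34 against -0.89 untreated. ABCA2, a lysosomal lipid transporter (chromosome 9, 137007234 to 137028922), was at 29.1, 35.2 and 29.2 CPM and 30.1, 22.3 and 45.1 CPM untreated, and at 27, 24.8 and 24.5 CPM and 1.91, 1.77 and 2.1 CPM at 6 h. In each of these 3 genes the PEO4 level fell between untreated and 6 h by 3.88 or more on the log2 scale, while PEO1 BRCA+ changed by less than 1.

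The 156 genes of opposite sign comprised 39 that became higher and 117 that became lower in PEO4. FOXQ1, a forkhead transcription factor (chromosome 6, 1312098 to 1314758), was at 154, 59.1 and 247 CPM in untreated PEO4 and 15.3, 14 and 19.6 CPM in untreated PEO1 BRCA+. At 6 h PEO4 was at 0.692, 1.31 and 1.35 CPM and PEO1 BRCA+ at 26, 25.4 and 18.8 CPM, so the log2 fold change passed from 3.24 to -4.42 (interaction adjusted p = 1.5e-06). KRT13, a keratin of stratified mucosa (chromosome 17, 41500981 to 41505612), passed from 2.8 to -3.02, with 11.2, 11.1 and 8.07 CPM in PEO1 BRCA+ and 1.43, 0.946 and 1.32 CPM in PEO4 at 6 h. ABCC3, an efflux pump for organic anions (chromosome 17, 50634881 to 50692253), passed from 1.2 to -4.21, with 42, 40.8 and 35.7 CPM and 2.24, 1.92 and 2.22 CPM at 6 h. MECOM, a zinc finger transcription factor gene often gained in ovarian carcinoma (chromosome 3, 169083507 to 169663712), went the other way, from 2, 5 and 3 counts in the untreated PEO4 libraries to 10.5, 9.64 and 10.5 CPM at 6 h. PEO1 BRCA+ was at 2.11, 2.97 and 2.55 CPM and 2.66, 3.4 and 3.67 CPM, and the log2 fold change passed from -4.01 to 1.66 (interaction adjusted p = 3.3e-12).

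**Figure D2:**
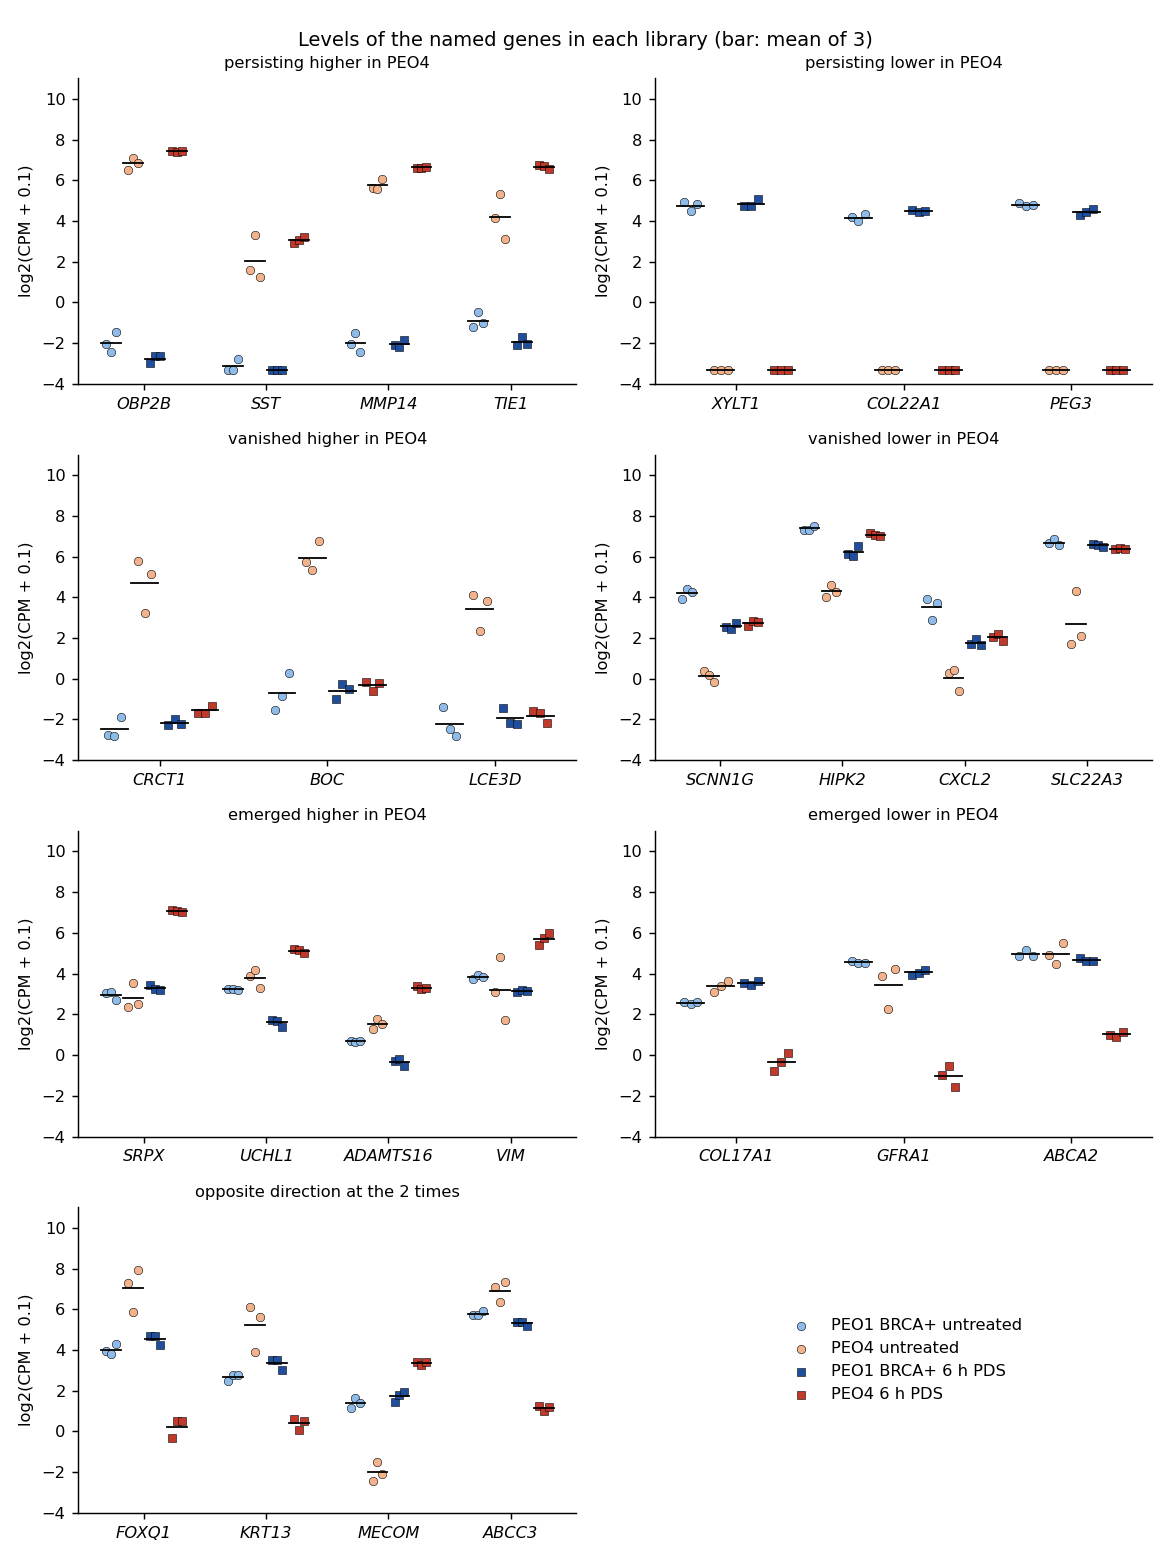
Level of each named gene in every library, as log2(CPM + 0.1) on the y axis, for untreated (circles) and 6 h (squares) cells of PEO1 BRCA+ (blue) and PEO4 (orange and red), with a bar at the mean of 3 libraries. In the panels of vanished, emerged and opposite genes the red squares lie far from the orange circles, whereas light and dark blue lie closer together in most genes (SCNN1G, CXCL2 and UCHL1 are exceptions).

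The G-runs that a G4 needs were looked up in the promoters of these genes because PDS binds G4s. RefSeq sequence (GRCh38.p14) from 250 bases before to 50 after the start was searched on both strands for 4 runs of GGG separated by 1 to 7 bases, and a promoter was found for 12721 of the 17020 tested genes. Of the 25 genes named for the classes above, 16 had an entry, and 5 of these held a stretch of this form. They are shown 5′ to 3′ on the strand that carries the guanines, with the runs in capitals.
MMP14: GGGGGctgtaGGGGGatccaGGGGacGGG
TIE1: GGGtGGGaGGGGtggcaGGG
XYLT1: GGGGacaGGGGtgtGGGGaGGGGGG
BOC: GGGaaGGGcgagccGGGGcccGGGGG
MECOM: GGGagccgcGGGGaGGGcggcGGGGGG
The stretches lie at chr14:22836337-22836365, chr1:43300924-43300943, chr16:17470921-17470945, chr3:113211971-113211996 and chr3:169663794-169663820. Only that of XYLT1, which lies 15 to 39 bases after the start, is on the strand of its gene. That of BOC lies at -145 to -120 from the start of its promoter entry, a start inside the gene span given above. A stretch was present in 33.7% of the promoters of tested genes (24.1% of all 27305 in the table). Among persisting genes the share was 39.1% (higher in PEO4) and 40.2% (lower). It was 32.5% and 35.6% among vanished, 38.5% and 37.7% among emerged, and 44.8% and 26.8% among the 29 and 82 promoters of genes of opposite sign. Of genes called at neither time 32.0% had one. These shares are a description without a test, a match is not evidence of a folded G4, and the median GC content of the promoters in these groups ran from 60.5% to 66.5%.

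The median line difference of vanished and of emerged genes at 2 h in PDS lay between its untreated and 6 h values. Single genes could depart from this. The log2 fold change of VIM was -0.14 untreated, 4.08 at 2 h and 2.60 at 6 h, whereas that of BOC was 6.79, 2.70 and 0.30. The median line difference of vanished genes was 0.98 and -0.49 at 2 h, and 230 of 514 (44.7%) and 80 of 322 (24.8%) were still called in the untreated direction. That of emerged genes was already 1.43 and -0.96, with 129 of 202 (63.9%) and 208 of 441 (47.2%) called in their later direction. Persisting genes were called at 2 h in 89.2% (higher) and 85.0% (lower) of cases. Of all tested genes, 2371 (13.9%) were called higher and 2147 (12.6%) lower in PEO4 at 2 h. The libraries at 2 h were used in no class definition, although they shared in the estimate of the spread.

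**Figure D3:**
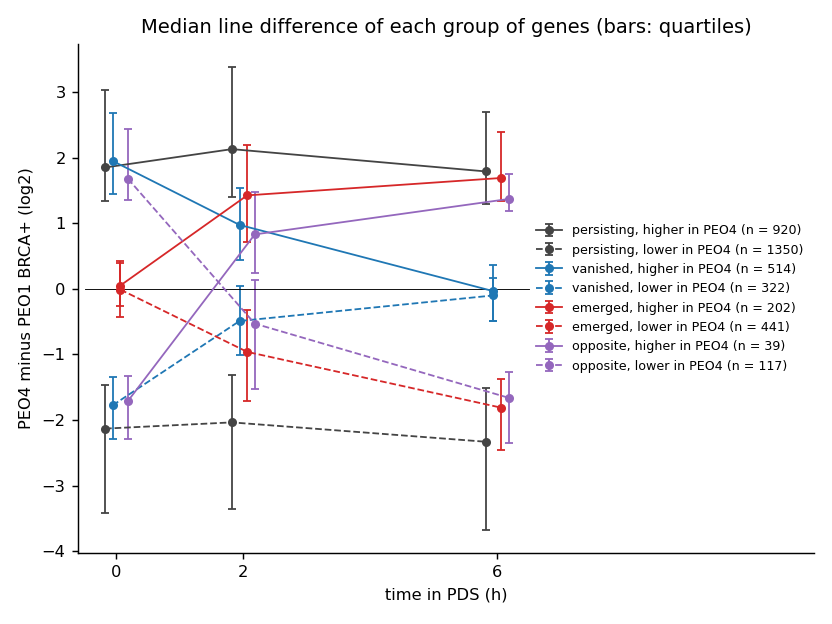
Median line difference (PEO4 minus PEO1 BRCA+, log2, y axis) of each group of genes against time in PDS (h, x axis, with untreated at 0), bars giving the quartiles over genes, solid lines for genes higher and dashed for lower in PEO4 (read untreated for vanished genes, at 6 h for the others). The vanished groups pass from 1.95 and -1.78 to near 0, and the emerged groups from near 0 to 1.69 and -1.81.

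The line that moved was mostly PEO4. Between untreated cells and 6 h, 2782 genes fell (16.3%) and 1066 rose (6.26%) in PEO4, and 1163 fell (6.83%) and 220 rose (1.29%) in PEO1 BRCA+. Of the 514 genes whose higher level in PEO4 vanished, 440 changed in PEO4 alone and 10 in PEO1 BRCA+ alone, with a median change of -2.23 in PEO4 and -0.16 in PEO1 BRCA+. Of the 441 genes that emerged as lower in PEO4, 351 changed in PEO4 alone and 15 in PEO1 BRCA+ alone. Genes that emerged as higher in PEO4 were more mixed, with 92 changed in PEO4 alone, 53 in PEO1 BRCA+ alone and 18 in both. These within-line changes use the libraries that define the classes and describe how each class arose. Taken 1 library at a time, the untreated PEO4 libraries gave medians of 1.77, 1.59 and 1.93 for the vanished genes that were higher and of -1.6, -1.0 and -1.86 for the genes of opposite sign that became higher, replicate 2 lying closest to the treated state. Without that library 946 differences vanished, 674 emerged and 184 changed sign, and without replicate 3 of untreated PEO4 these numbers were 739, 625 and 132.

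Pair A gave the line difference in cells that were never treated and in libraries that no class used. Of 15396 genes tested in both tables, 1844 (12%) were higher and 1975 (12.8%) lower in PEO4 of pair A. Persisting genes were called there in the same direction in 63.7% (higher) and 71.7% (lower) of cases, and in the opposite direction in 3.39% and 2.58%. Vanished genes kept their untreated direction in 54.9% and 63.1%. Emerged genes were called in their 6 h direction in 19.7% and 21.1%, and against it in 20.8% and 18.4%. Of the genes of opposite sign, 6.06% and 7.69% were called in pair A in their 6 h direction and 75.8% and 53.8% in their untreated direction. PEO1 of pair A lacks BRCA2 function and its table was normalized apart, so levels were not set across the tables. Per the paper, sodium pyruvate was also added to the medium of BRCA2-impaired PEO1 and of its matching PEO4 cells.

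Genes of the interferon response kept part of a large line difference. These genes, induced by interferon signalling, include RNA sensors (DDX58, IFIH1), inhibitors of viral translation and entry (IFIT and IFITM families), BST2 and the 2′-5′-oligoadenylate synthetases. Of 38 tested, 37 were higher in untreated PEO4 and 21 at 6 h (55.3%, beside 9.52% of all tested genes), none was lower at either time, and the median log2 fold change was 3.08 and 1.44, against -0.001 and -0.003 over all tested genes. All 21 persisted and 14 vanished, beside 13.3% and 4.91% of all tested genes. A called interaction was found for 26, each more negative at 6 h, beside 9.34% of all tested genes. BST2, which tethers budding virus to the cell, was at 0.108, 0.152 and 0.0881 CPM in PEO1 BRCA+ and 1.86, 2.07 and 2.6 CPM in PEO4 at 6 h, a log2 fold change of 4.18 ± 0.747 SE with an adjusted p of 0.00021 against 9.68 untreated. OAS2 was at 0.597, 0.819 and 0.323 CPM and 6.27, 9.64 and 10.8 CPM, a log2 fold change of 3.93 ± 0.444 SE with an adjusted p of 2.9e-06 against 6.59. The vanished members included the transcription factors IRF9 and IRF7, singled out after their values were seen, with IRF9 passing from 2.83 to 0.92 and IRF7 from 1.85 to 0.13. The summed level of the list was 3570.3 to 5403 CPM per untreated PEO4 library and 1182 to 1512 CPM at 6 h, and it was 547 to 657 CPM and 596 to 610 CPM in PEO1 BRCA+.

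**Figure D4:**
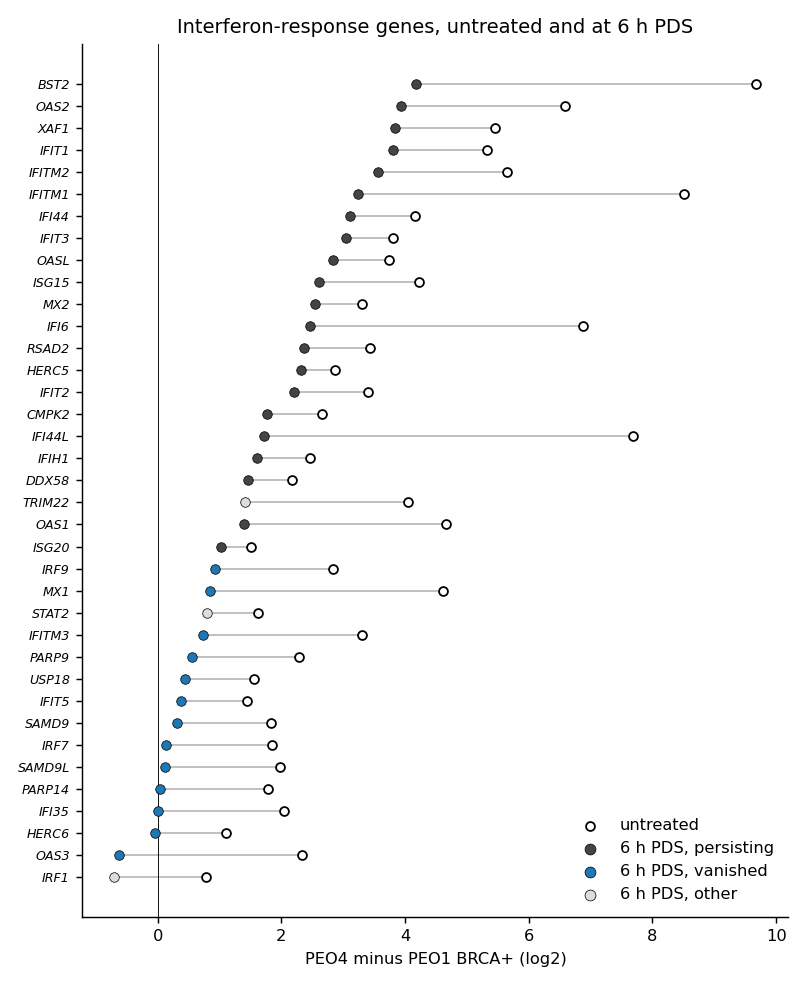
Line difference (PEO4 minus PEO1 BRCA+, log2, x axis) of 37 of the 38 interferon-response genes, 1 row per gene, untreated (open) and at 6 h PDS (filled; black persisting, blue vanished, grey other). Every filled point lies to the left of its open point, and 21 remained called at 6 h.

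Of 15 MHC class I genes (heavy chains, peptide transporters and loading factors), 1 was higher and 1 lower in PEO4 at 6 h (6.67% each, beside 9.52% and 13.5% of all tested genes). Of these 15, 5 were higher in untreated PEO4, beside 12.2% of all tested genes. The difference vanished for 3, beside 4.91% of all tested genes. These were HLA-B, HLA-F and PSMB8, with log2 fold changes of 0.16, -0.60 and -0.40 at 6 h. TAP2, a peptide transporter subunit, was higher at 6 h (1.28 ± 0.075 SE with an adjusted p of 1.1e-13). Untreated it had been at 0.98, just under the fold threshold, and its interaction of 0.30 was not called. NLRC5, the transactivator of these genes, was lower (-1.03 ± 0.144 SE with an adjusted p of 6.9e-07), but came under the fold threshold without replicate 1 of PEO1 BRCA+ (-0.97) or replicate 2 of PEO4 (-0.99) at 6 h. The NF-κB cytokine list was lower in PEO4 at both times, with 12 of 21 lower untreated and 11 at 6 h (52.4%, beside 13.5% of all tested genes) and medians of -2.02 and -1.10. CCL2, a monocyte chemokine, had 1.95, 1.46 and 1.67 CPM in PEO1 BRCA+ at 6 h and 0 counts in PEO4, at least 20.1-fold less. CXCL5, a neutrophil chemokine, changed sign and was at 0, 1 and 2 counts in PEO1 BRCA+ and 0.93, 0.885 and 0.659 CPM in PEO4 at 6 h, at least 9.5-fold more.

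Epithelial and mesenchymal genes did not move as a block. Of 16 keratins, 1 was higher and 9 were lower in PEO4 at 6 h (6.25% and 56.2%, beside 9.52% and 13.5% of all tested genes, median -1.27 against -0.67 untreated). KRT5, the basal keratin, was at 1190.4, 1208 and 1277 CPM in PEO1 BRCA+ and 17.8, 21.4 and 24.9 CPM in PEO4, a log2 fold change of -5.85 ± 0.278 SE with an adjusted p of 3.6e-10 that had been -2.95 untreated. KRT15 had a log2 fold change of -3.67 against -1.69 untreated. The 18 cornified envelope genes, which crosslink the outer layer of stratified epithelium, turned from 13 higher and 3 lower untreated to 3 higher and 7 lower at 6 h (16.7% and 38.9%). The median passed from 1.69 to -0.83, and was -0.52 without replicate 3 of PEO1 BRCA+ at 6 h. For 11 of the 18 the interaction was called, each more negative, beside 9.34% of all tested genes. TGM3, an epidermal transglutaminase, fell by 8.54 on the log2 scale in PEO4 (adjusted p = 7.8e-10), from 607, 213 and 503 CPM untreated to 1.48, 1.1 and 0.898 CPM at 6 h. It was then still at least 13.3-fold above PEO1 BRCA+, which had at most 1 count per library at 6 h, and its interaction was not called (-5.07 ± 8.67 SE with an adjusted p of 0.67). S100A9, a subunit of calprotectin, remained lower (-4.09 ± 0.217 SE with an adjusted p of 7.7e-11). Of 29 genes of epithelial adhesion, 1 was higher and 3 lower (3.45% and 10.3%), among them the tight junction gene CLDN1 at 909, 920.3 and 1058 CPM in PEO1 BRCA+ and 83.3, 81.1 and 90.9 CPM in PEO4, and the placental cadherin CDH3 (-1.96 against -3.9 untreated). Of 25 mesenchymal genes, 11 were higher and 7 lower at 6 h (44% and 28%), against 8 and 8 untreated. The mesenchymal cadherin CDH11 was at 58.4, 55.2 and 60.3 CPM in PEO1 BRCA+ and had at most 1 count in each PEO4 library, at least 688-fold less, in contrast to MMP14 and VIM above. Ovarian carcinoma markers were higher for 5 and lower for 2 of 17 (29.4% and 11.8%), including the cadherin CDH6, which changed sign from -1.1 to 2.38. The folate receptor FOLR1 was at 0.0542, 0.121 and 0.0294 CPM in PEO1 BRCA+ and 1, 1.28 and 1.2 CPM in PEO4. In untreated PEO4 it had been at 35.6, 23.8 and 41.6 CPM.

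WNT ligands are secreted proteins that signal through Frizzled receptors. Of 14 tested ligands, 3 were higher and 8 lower at 6 h (21.4% and 57.1%, beside 9.52% and 13.5% of all tested genes), against 3 and 5 untreated. The median passed from -0.13 to -1.25, and 5 emerged, beside 3.78% of all tested genes. The summed level was 619.5 to 631 CPM in PEO1 BRCA+ and 137 to 143 CPM in PEO4 at 6 h, against 538 to 621 and 422 to 446 CPM untreated. WNT7A, WNT5A and WNT10A, which were singled out after their values were seen, passed from -0.80, 0.78 and 0.95 to -3.67, -1.35 and -1.41. WNT16, also emerged and singled out in the same way, went the other way, from 0.42 to 3.32. WNT11, a ligand of the planar polarity branch, remained higher in PEO4, at 0.705, 0.606 and 0.646 CPM and 8.99, 11 and 9.88 CPM (3.91 against 6.57 untreated). WNT4 had 10, 4 and 11 counts in PEO1 BRCA+ and at most 1 count per PEO4 library at 6 h, at least 2.83-fold less. Of 16 receptors, 1 was higher and 4 lower (6.25% and 25%), including FZD10, at 13.9, 12.1 and 11 CPM in PEO1 BRCA+ and at most 1 count per library in PEO4, and the non-canonical receptor ROR1 (-4.11 ± 0.111 SE with an adjusted p of 6.2e-20). Among 15 feedback and target genes 3 were higher and 4 lower (20% and 26.7%). The transcription factor LEF1 had 3, 14 and 17 counts in PEO1 BRCA+ and 0 in PEO4, and TNFRSF19 had 58, 41 and 65 counts in PEO1 BRCA+ and 5, 7 and 3 counts in PEO4.

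Of 33 TGF-β and BMP genes, 9 were higher and 6 lower at 6 h (27.3% and 18.2%, beside 9.52% and 13.5% of all tested genes), against 12 and 5 untreated. Of their 14 called interactions 12 were more negative, as were 1589 of the 2512 called over all tested genes. TGFB2, the ligand, was at 12.7, 12.5 and 14 CPM in PEO1 BRCA+ and 0.453, 0.61 and 0.449 CPM in PEO4, a log2 fold change of -4.7 against -1.24 untreated, and INHBB, an activin subunit, was at 407, 399 and 369.9 CPM and 20.3, 20.1 and 23.8 CPM. Of 28 EGFR-MAPK genes, 3 were higher and 9 lower (10.7% and 32.1%). The ligand AREG persisted at a lower level in PEO4 (119, 129 and 128 CPM and 7.92, 8.15 and 7.63 CPM). The receptor ERBB4 had 1 count in each PEO1 BRCA+ library and was at 0.692, 0.915 and 0.778 CPM in PEO4, at least 9.16-fold more. In untreated PEO4 it had been at 26.6, 21.5 and 23.4 CPM. Its log2 fold change passed from 7.3 to 4.59, and the interaction was not called (adjusted p = 0.061). Of 17 Notch genes, 3 were higher and 5 lower (17.6% and 29.4%), with the ligand JAG1 lower (-3.18) and DTX4, a ubiquitin ligase of the pathway, higher (2.02). Of 22 Hippo-YAP targets, 1 was higher and 3 lower (4.55% and 13.6%), a share lower in PEO4 that is near that of all tested genes, among them FOXF2 at 23.1, 19.9 and 18.2 CPM in PEO1 BRCA+ and 0, 0.0305 and 0.15 CPM in PEO4. Immediate early genes were higher for 11 and lower for 3 of 25 untreated and for 3 and 3 at 6 h (12% each, near the shares of all tested genes). Of these, EGR1 was higher in PEO4 (8.79, 8.79 and 4.23 CPM and 48.9, 56.4 and 39.8 CPM) and EGR3 lower (-3.29). Of 31 calcium signalling genes, 5 were higher and 11 lower (16.1% and 35.5%), with few counts behind the leading members: the calcium channel CACNA1C had 9, 6 and 3 counts in PEO1 BRCA+ and 0 in PEO4, and the ryanodine receptor RYR1 was at 1.55, 1.68 and 1.59 CPM in PEO4 and 5, 1 and 0 counts in PEO1 BRCA+.

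HOX genes, which specify position along the body axis, kept their line difference almost entirely. Of 24 tested, 2 were higher and 21 lower in PEO4 at both times (8.33% and 87.5% at 6 h, beside 9.52% and 13.5% of all tested genes). All 23 persisted, beside 13.3% of all tested genes, and the list median was -4.15 untreated and -4.31 at 6 h. The summed level of the 39 listed genes was nevertheless higher in PEO4. It was 402 to 439 CPM in PEO1 BRCA+ and 689 to 710 CPM in PEO4 at 6 h, against 476 to 509 and 814 to 848 CPM untreated. HOXC10 was at 9.74, 10.2 and 9.22 CPM in PEO1 BRCA+ and had 0 counts in PEO4 at 6 h, at least 115-fold less. HOXC9 was at 7.68, 8.25 and 7.37 CPM and had at most 1 count per PEO4 library, at least 92.1-fold less. HOXB2 and HOXB3, the only members called higher, were singled out after their values were seen and had log2 fold changes of 1.40 and 1.67. Of 17 imprinted genes, 3 were higher and 4 lower (17.6% and 23.5%), led by PEG3 and by ZIM2, which shares its locus and was at 1.55, 2.06 and 2.58 CPM in PEO1 BRCA+ with 0 counts in PEO4.

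Genes of the matrix and its receptors differed in both directions. Of 36 collagens and laminins, 9 were higher and 10 lower in PEO4 at 6 h (25% and 27.8%, beside 9.52% and 13.5% of all tested genes), against 10 and 10 untreated. The difference persisted for 14 of the 36, beside 13.3% of all tested genes. The basement membrane collagen COL4A2 was at 621, 605 and 682 CPM in PEO1 BRCA+ and 5.27, 4.94 and 6.74 CPM in PEO4, a log2 fold change of -6.82 ± 0.108 SE with an adjusted p of 1.2e-23 against -6.99 untreated. COL3A1 had 0 counts in PEO1 BRCA+ and was at 0.405, 0.427 and 0.868 CPM in PEO4, at least 6.53-fold more. In untreated PEO4 it had been at 6.62, 6.23 and 7.56 CPM, at least 51.1-fold more than in untreated PEO1 BRCA+. COL6A3 was at 0.325, 0.334 and 0.587 CPM and 18.4, 17.8 and 19.9 CPM. Of 18 integrins, 5 were higher and 2 lower (27.8% and 11.1%), with ITGA9 at 0.298, 0.576 and 0.558 CPM in PEO1 BRCA+ and 6.58, 6.8 and 6.23 CPM in PEO4, and ITGB3 at 13, 9 and 11 counts and 1, 0 and 2 counts.

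A list of platinum transport and glutathione metabolism genes also held SLFN11 and metallothioneins. Of its 36 tested genes, 2 were higher and 13 lower in PEO4 at 6 h (5.56% and 36.1%, beside 9.52% and 13.5% of all tested genes), against 2 and 7 untreated. Of these genes 7 emerged, beside 3.78% of all tested genes, and the median was -0.31 against -0.11. SLFN11, a helicase-like protein that blocks stressed replication forks, was at 23.7, 21.6 and 25.5 CPM in PEO1 BRCA+ and 0.286, 0.549 and 0.329 CPM in PEO4, a log2 fold change of -5.94 ± 0.145 SE with an adjusted p of 3.8e-21 against -2.96 untreated. Of the metallothioneins, which bind metal ions, MT1F, MT1G and MT1X emerged as lower (-2.09, -3.0 and -1.73) and MT1E and MT1M persisted as lower (-1.42 and -3.53), while MT2A was not called (-0.22). They were singled out after their values were seen, and reads of these close paralogs may be exchanged. SLFN11 and the metallothioneins named as lower count among the 13 lower genes of the list. The importer SLC31A1 and the exporters ATP7A and ATP7B were not called at either time (-0.53, 0.25 and 0.62 at 6 h).

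Genes of DNA repair, mitosis and translation mostly did not differ past the thresholds. BRCA2, which lies on chromosome 13, 32315077 to 32400268 and overlaps ZAR1L and IFIT1P1, was at 5.15, 4.67 and 5.25 CPM in PEO1 BRCA+ and 10.6, 9.64 and 8.11 CPM in PEO4 at 6 h. All 3 PEO4 libraries were higher, by 0.91 ± 0.117 SE with an adjusted p of 1.7e-07, which is under the fold threshold. Without replicate 3 of PEO4 at 6 h the value was 1.01 and passed it. In untreated cells, at 7.86, 8.8 and 8.08 CPM and 7.92, 7.33 and 9.26 CPM, the lines had overlapped with a log2 fold change of -0.01, and the interaction of 0.93 ± 0.169 SE with an adjusted p of 7.9e-05 also stayed under the fold threshold. Of 38 genes of homologous recombination and the Fanconi pathway, only RAD52, a single-strand annealing protein, was called at 6 h (2.63% higher, beside 9.52% of all tested genes, 1.08 ± 0.112 SE with an adjusted p of 4.7e-09), and no interaction was. Of 18 helicases that unwind G4s, RECQL4 was higher at both times (1.78 and 1.75) and none was lower (5.56% and 0%). Of 28 mitosis genes, 3 were higher (10.7%) and none lower, including BUB1 of the spindle checkpoint (1.36 ± 0.0731 SE with an adjusted p of 1.8e-14, against 0.40 untreated) and the kinesin KIF20A (1.13 against 1.19). Of 50 ribosomal protein genes, RPL8 and RPL38 were higher (4% of the list, log2 fold changes 1.38 and 1.09), and both differences persisted. Of 25 p53 targets, 2 were higher and 4 lower (8% and 16%, near the 9.52% and 13.5% of all tested genes), among them DDB2, a sensor of ultraviolet damage (-1.12 ± 0.0984 SE with an adjusted p of 3e-10), and EDA2R, a death receptor at 0.217, 0.0606 and 0.176 CPM in PEO1 BRCA+ and 0.477, 0.458 and 0.389 CPM in PEO4. The EDA2R difference of 1.5 became 1.21 with an adjusted p of 0.063 when counts were thinned to equal totals. A miss of the threshold does not show equal levels, and the medians of these lists at 6 h lay between -0.05 and 0.10.

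Among leukocyte markers 3 of 5 tested were lower and none higher in PEO4 (60% lower, beside 13.5% of all tested genes), led by ITGAM (38, 38 and 50 counts in PEO1 BRCA+ and 0 in PEO4) and CSF1R (18, 18 and 14 counts and 11, 6 and 2 counts), whose adjusted p of 0.0084 became 0.054 without replicate 3 of PEO4. Among endothelial markers 1 of 7 was higher and 3 lower (14.3% and 42.9%), with VWF at 15, 23 and 12 counts and 0, 2 and 2 counts and CLDN5 at 7, 8 and 5 counts and 19, 17 and 16 counts. The call of CLDN5 (adjusted p = 0.03) was lost without replicate 1 or 3 of PEO1 BRCA+ (0.07 and 0.093) or replicate 2 or 3 of PEO4 (0.066 and 0.054), and with counts thinned to the smallest total its log2 fold change of 1.31 became 0.79 with an adjusted p of 0.34. Among fibroblast markers 3 of 7 were higher and 2 lower (42.9% and 28.6%), the latter including THY1 with 11568 counts over the 3 PEO1 BRCA+ libraries and 4380 over those of PEO4. Among mesothelial markers 3 of 8 were higher and 1 lower (37.5% and 12.5%), including BNC1 at 2.25, 2.52 and 3.29 CPM and 42.7, 45.5 and 45.1 CPM and CALB2 at 21, 20.1 and 18.8 CPM and 1.91, 2.17 and 2.42 CPM.

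Line differences were unevenly spread over the genome, in the same places at both times. Tested genes were placed by their RefSeq start (GRCh38.p14) into windows of 20 Mb, and 120 windows held at least 60 tested genes. The windows were laid out after the calls were known, and no test was made. The median line difference of a window untreated and at 6 h had a Pearson's r of 0.932 over the 120 windows, which share libraries at each time but none between the times. Over all tested genes, 9.52% were higher and 13.5% lower in PEO4 at 6 h, and 13.3% persisted. On chromosome 8 from 140 Mb to the end, which holds RECQL4 and RPL8, 73 of 93 genes (78.5%) were higher and 1 lower at 6 h. The median log2 fold change there was 1.62 untreated and 1.56 at 6 h, and 68.8% persisted. On chromosome 6 between 40 and 60 Mb, 36 of 114 were higher and 6 lower (medians 0.83 and 0.77). Lower levels in PEO4 prevailed on chromosome 13 from 100 Mb (38 of 62 lower, none higher, medians -1.04 and -1.21), on chromosome 22 from 40 Mb (74 of 133 lower, 3 higher, medians -0.99 and -1.14) and on chromosome 20 up to 20 Mb (57 of 125 lower, 4 higher, medians -0.98 and -0.96). In 17 windows the median at 6 h was above 0.3 and in 17 below -0.3, while the median over all tested genes was -0.003.

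**Figure D5:**
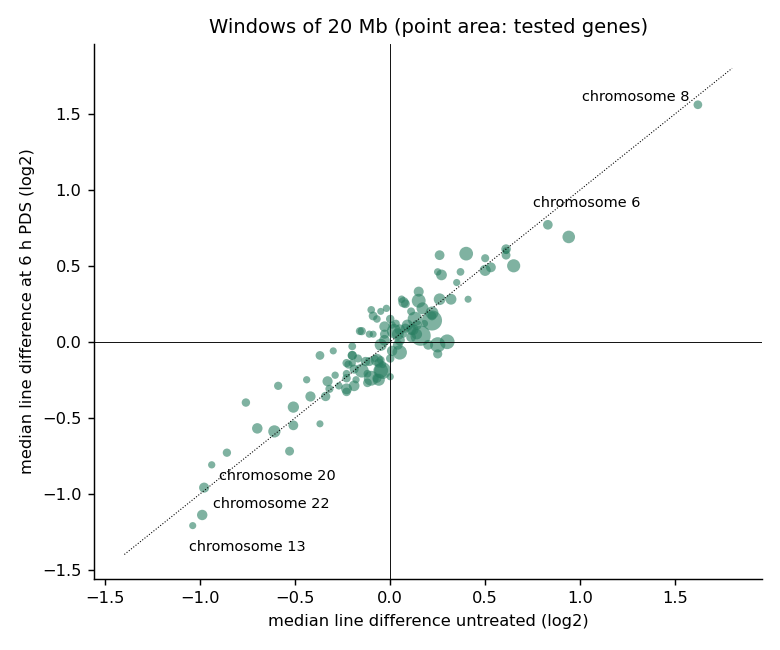
Median line difference (PEO4 minus PEO1 BRCA+, log2) of 120 windows of 20 Mb, untreated on the x axis and at 6 h PDS on the y axis, with point area in proportion to the number of tested genes and the dotted line marking equal values. The windows lie along the dotted line, from -1.21 at 6 h on chromosome 13 to 1.56 on chromosome 8.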

How the data were processed

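RNA was sequenced from PEO1 and PEO4 cells, 24 libraries in all, and 18 of them (PEO1 BRCA+ and PEO4, untreated or in 5 µM PDS for 2 or 6 h, 3 libraries per group) gave the comparison described here. Per the labels, the authors trimmed reads with fastp, checked them with FastQC, aligned them to hg38 with STAR and deposited unnormalized featureCounts counts per gene. Tool versions, the gene annotation and the strand setting are not given in the sources used here, so counts of overlapping genes may be exchanged. The 6 libraries of pair A were in a separate table and were fitted apart.

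One line without counts was dropped, leaving 28277 genes, of which 4746 were at 0 in all 18 libraries. Genes were filtered with filterByExpr (minimum count 10, minimum total 15), which left 17020. Libraries were scaled by TMM, and the 6 group means were fitted to all 18 libraries with the quasi-likelihood method of edgeR 4.0.16 (R 4.3.3, robust), with 12 residual degrees of freedom, so that all groups shared 1 estimate of the spread. The line difference at 6 h, untreated and at 2 h, and the interaction (6 h minus untreated), were contrasts of this fit. Adjusted p-values were two-sided and from the Benjamini-Hochberg method over all tested genes. A gene was called at an adjusted p under 0.05 if its log2 fold change was also over 1 or under -1. The standard error (SE) was the absolute log2 fold change divided by the square root of the test's F statistic. It therefore restates the test and is no separate estimate. The 95% intervals came from this SE and the t quantile. Where each of the 3 libraries of a group had 3 counts or fewer, the fold is a lower bound against 3 counts per library. Fitted values of such genes depend on the prior count of 0.125. The fits were tested on simulated data.

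Gene positions and promoter sequences were taken from RefSeq (GRCh38.p14), where 16698 of the tested symbols matched. The libraries are labelled as biological replicates, and p-values measure only the spread between these cultures. In a chi-square comparison of counts, no pair of libraries within a group was as alike as repeat counts of 1 library would be. Total counts were 34119767 to 43713947 per library at 6 h and 18699929 to 22375644 untreated.

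The genes named were BRCA2, up to 4 genes of each class and direction (4 in all for changed sign) with the largest fold change at 6 h (persisting) or interaction, and up to 2 called genes of each list with the largest fold change at 6 h. Class genes had to be protein-coding, to reach a mean log2 CPM of 3 in the higher group and not to overlap between the lines where called. Some genes that these rules pick are not reported here. The members and the 31 lists were chosen with earlier results of these data known, so the share of a list that was called is given beside that of all tested genes, without a test. Alternatives were DESeq2 1.42.0, other scalings and filters, glmTreat, thinned counts, fewer libraries in the fit, a replicate block and leaving out each library.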

Additional observations from a re-analysis of the deposited data

Results flagged for a closer look

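The line difference (PEO4 minus PEO1 BRCA+) at 6 h in PDS differed from that in untreated cells for 45 of the genes named above, by a test of the interaction itself (edgeR's quasi-likelihood test, Benjamini-Hochberg adjusted p under 0.05 and absolute value over 1). Each value below is that interaction on the log2 scale, 6 h minus untreated, from 3 libraries per group. Treatment moved together with sequencing depth and the ribosomal RNA share. With counts thinned to the smallest total, 755 differences vanished, 585 emerged and 128 changed sign, against 836, 643 and 156. The interaction of CRCT1 was then not called (adjusted p = 0.093). The part of the ribosomal RNA share was not tested.

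Among vanished differences the values were CRCT1 -7.58, BOC -6.49, LCE3D -6.3, SCNN1G 4.31, HIPK2 3.92, CXCL2 3.85 and SLC22A3 3.4. Emerged differences had SRPX 3.83, UCHL1 2.95, ADAMTS16 2.94, VIM 2.74, COL17A1 -4.85, GFRA1 -4.45 and ABCA2 -3.79. Those that changed sign had FOXQ1 -7.66, KRT13 -5.83, MECOM 5.67 and ABCC3 -5.4.

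Epithelial, mesenchymal and ovarian genes had FOLR1 -4.28, CDH6 3.48, CDH3 1.94, CDH11 -3.27, KRT5 -2.9, KRT15 -1.99 and S100A9 -1.73. Signalling genes had WNT4 -3.75, WNT11 -2.65, FZD10 -3.77, ROR1 -2.18, LEF1 -7.76, TGFB2 -3.46, INHBB -2.91, JAG1 1.11, EGR3 -1.97 and EDA2R -2.57. Interferon, antigen presentation and cytokine genes had BST2 -5.5, OAS2 -2.66, NLRC5 -1.02 and CXCL5 10.16. The remaining genes had SLFN11 -2.99, ITGA9 1.64, ITGAM -5.17, VWF -5.29, COL6A3 3.08 and CALB2 1.8. In BST2, CDH11, CXCL5, EDA2R, FOLR1, FZD10, ITGAM, LEF1, VWF and WNT4 at least 1 group had no more than 3 counts in each library, and the fitted size there depends on the prior count. The interaction of CRCT1 had an adjusted p of 0.03, and of 0.054 to 0.093 without single PEO1 BRCA+ libraries.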

How the results depend on the processing

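At 6 h 1620 genes were higher and 2301 lower in PEO4, 2270 line differences persisted, 836 vanished, 643 emerged and 156 changed sign. With the adjusted p alone and no fold threshold these numbers were 5783, 5901, 7697, 1838, 1764 and 1214. With glmTreat, which tests against the fold threshold itself, 936 genes were higher, 1372 differences persisted and 38 changed sign, while the other counts stayed within 1.5 times. The other alternatives kept all 6 counts within 1.5 times. DESeq2 shared 3852 of the 3921 calls at 6 h.

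Without 1 library at a time the counts ran from 1589 to 1650 higher, 2302 to 2365 lower, 2234 to 2298 persisting, 739 to 946 vanished, 620 to 676 emerged and 132 to 184 of changed sign. A replicate block gave 1622, 2298, 2270, 846, 641 and 155 and changed no call of a named gene. Replicate numbers did not pair the libraries, since the deviations of same-numbered PEO4 and PEO1 BRCA+ libraries at 6 h had correlations of -0.0016, -0.0040 and -0.0186.

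Of 2246 recomputed values of the genes picked by the naming rules, 2230 kept their side of the threshold, 15 lost a call and 1 gained it. Where either value was called, 0 reversed direction. Direction was not compared where neither value was called, and glmTreat was not part of this tally. The changed calls concern BRCA2, CLDN5, CRCT1, CSF1R, EDA2R and NLRC5, and the causes were not tested. Of 465 recomputed list medians 12 moved by more than the median SE of the log2 fold changes of the list members. Low counts limit the size of the fold in the 498 genes called at 6 h with at most 3 counts per library in one line.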
